A study of Mus musculus with 5 samples.

Results

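Alveolar type I (AEC-I) cells are the thin, flat cells that cover most of the gas-exchange surface, and their known genes serve membrane spread, fluid transport and contact with the capillaries. After birth they can arise from alveolar type II (AEC-II) cells, the cuboidal cells that make surfactant, and AEC-II cells kept in culture are known to take on AEC-I features. The expression of 10 AEC-I genes was followed here through a reprogramming series of mouse AEC-II cells: Ager, Pdpn, Aqp5, Clic5, Akap5, Cav1, Emp2, Rtkn2, Hopx and Vegfa. They are 10 of the 22180 genes that have a probe with exactly 1 gene symbol. Each was read from the probe of that kind with the highest mean over the arrays, and 12 such probes carry the 10 symbols, 3 of them for Rtkn2 and 1 for each other gene. All 10 reached, on at least 1 array, the median of all deposited values (4.78 on the log2 scale), as did 15436 genes in all, and these 15436 are the genes compared below.

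Each of 5 conditions was profiled on a single Affymetrix Mouse Gene 2.0 ST array. Cells came from adult lung, and the study describes AEC-II cells of mice that carry 2 transgenes, R26-rtTA and Col1a1::tetO-4F2A, so that doxycycline (Dox) switches on Oct4, Sox2, Klf4 and c-Myc (OSKM) from 1 cassette. Day0 stands for AEC-II cells straight from isolation, sorted in the study as CD45neg, CD31neg and EpCAMpos. 2WND stands for cells kept for 2 weeks without Dox, in Matrigel over mouse embryonic fibroblast feeders and in epithelial medium. 2WND + 2W+D stands for such cells after passage and 2 weeks of Dox in ES medium, which the study calls AEC-II-iPL cells. 2WND + 2W+D + 2W-D stands for AEC-II-iPL cells after 2 further weeks without Dox. On the last array are iPS cells of unstated origin. Dox, passage, medium and time in culture differ together between these arrays, so their effects cannot be told apart.

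The arrays are alike in scale, with upper quartiles from 6.75 to 6.85. Of 11 AEC-II markers measured, all 11 lay at or above 4.78 on each of the 4 lung cell arrays and 8 did in iPS cells, and of 8 pluripotency markers all 8 did in iPS cells against 1 to 3 on the other arrays. Several of those 8 AEC-II markers lay little above 4.78 in iPS cells, such as Sftpc at 5.06. Compared with 2WND, 10 of the 11 were at least 2-fold lower in iPS cells and 1 was higher (Etv5). The median log2 difference of the 11 was -5.95. The lung cell arrays, Day0 included, also carried transcripts that mark other cell types. At Day0 the log2 of the summed signal was 13.30 for 7 basal and airway markers and 10.46 for 10 endothelial markers. In 2WND these sums were 13.33 and 8.49. Fibroblast markers, whose summed signal was 9.54 on the log2 scale at Day0 with 4 of 12 below 4.78, stood at 14.09 in 2WND, 14.96 in 2WND + 2W+D and 14.37 in 2WND + 2W+D + 2W-D, with none of 12 below. In bulk RNA, fewer cells of a type and less RNA per cell cannot be told apart.

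**Figure D1:**
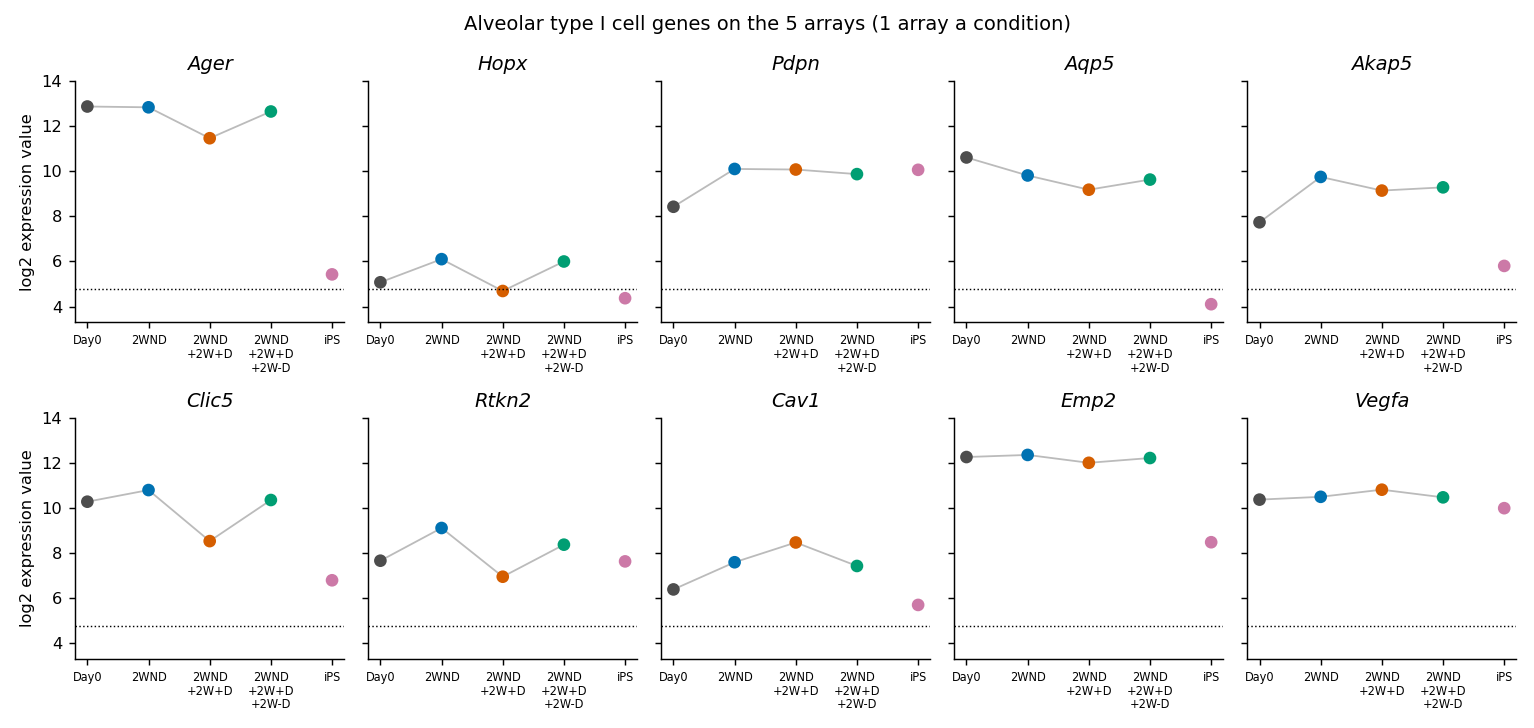
Log2 expression value (vertical axis) of each of the 10 genes on the 5 arrays (horizontal axis), 1 point for each array, with a line through the 4 lung cell arrays and a dotted line at 4.78, the median of all values. Ager, Clic5, Rtkn2 and Hopx dip in 2WND + 2W+D, Cav1 peaks there, and Vegfa spans only 0.82.

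Of the 10 genes, 4 were at least 2-fold lower with Dox than in 2WND, where 7.56% of all compared genes were. Promoter sequence is shown for 3 of these, Ager, Clic5 and Hopx, because they share the lower value with Dox by which they were picked and an OSKM factor, Klf4, is known to bind the CACCC letters of KLF sites. The fourth, Rtkn2, has no entry in the promoter table. The sequences are the 250 bases before the start site in RefSeq on GRCm38.p6, 5′ to 3′ on the gene's strand, and capitals mark matches to the motifs searched. The Ager bases lie at chr17:34597600-34597849 on the plus strand, those of Clic5 at chr17:44188322-44188571 on the plus strand, and those of Hopx, from the first of its 2 entries, at chr5:77115124-77115373 on the minus strand. The Ager and Clic5 windows lie inside the spans of their genes, chr17:34597460-34600937 and chr17:44134762-44280169, so their start sites are not the outermost ones.
Ager: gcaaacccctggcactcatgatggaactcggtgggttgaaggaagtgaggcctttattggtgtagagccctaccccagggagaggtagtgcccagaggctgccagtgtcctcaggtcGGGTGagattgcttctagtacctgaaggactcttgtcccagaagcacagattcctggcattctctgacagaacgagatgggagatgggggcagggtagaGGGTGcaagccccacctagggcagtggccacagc
Clic5: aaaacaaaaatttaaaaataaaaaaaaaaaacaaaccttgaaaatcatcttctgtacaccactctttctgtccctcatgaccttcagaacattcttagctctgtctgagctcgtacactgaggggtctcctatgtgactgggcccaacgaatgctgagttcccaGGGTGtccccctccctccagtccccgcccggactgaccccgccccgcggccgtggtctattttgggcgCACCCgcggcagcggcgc
Hopx: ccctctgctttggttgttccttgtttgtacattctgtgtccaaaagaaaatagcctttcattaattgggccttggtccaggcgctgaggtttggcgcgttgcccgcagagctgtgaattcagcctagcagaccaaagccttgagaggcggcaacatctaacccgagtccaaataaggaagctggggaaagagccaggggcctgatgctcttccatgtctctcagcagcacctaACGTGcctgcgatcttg
Both capital stretches of Ager read GGGTG, which is CACCC on the other strand, and start 133 and 34 bases before the start site. Clic5 holds GGGTG 86 bases and CACCC 18 bases before its start. Hopx holds no CACCC on either strand in this window, and its only capitals are ACGTG, the core of hypoxia response elements, 17 bases before the start. GC content was 57.6% for Ager, 52.8% for Clic5 and 52.4% for Hopx, against a median of 52.4% over all 32851 windows of the table.

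The whole windows, with 50 bases after the start added, were searched on both strands in 12 entries of 9 of the 10 genes. CACCC stood in 8 of the 12 and in 57.5% of all windows, and ACGTG in 6 of the 12 and in 19.6% of all. A palindrome, CACGTG, gives 2 overlapping ACGTG matches and was counted as 1 window. GGAATG, the letters of TEAD sites, stood in none of the 12 (14.7% of all windows). CAAGTG, the letters of NKX2-1 sites, stood in 1, the second Hopx entry (13.6% of all), and AGATAA, the letters of GATA sites, in 1, the first Vegfa entry (11.2% of all). These letter matches describe the windows and identify no bound factor.

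Levels are given next for each gene on its own log2 scale, since probes differ in brightness and only differences within a probe can be read. A log2 difference of 1 is 2-fold. With 1 array for each condition there is no replicate error and no test, so a difference is called at 2-fold and read against the share of all compared genes past 2-fold. The pair of arrays most alike, 2WND and 2WND + 2W+D + 2W-D, had a robust spread of 0.23 over genes, which serves as a yardstick for small differences. This spread can hold real differences as well as array error, so it does not separate them.

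Ager encodes the receptor for advanced glycation end products (RAGE), a protein of the basal AEC-I membrane. It read 12.87 at Day0, 12.84 in 2WND, 11.46 in 2WND + 2W+D, 12.65 in 2WND + 2W+D + 2W-D, and 5.43 on the iPS array. The 3 lung cell arrays without Dox lay within 0.22 of each other and the Dox array lay below all 3. Ager was 2.59-fold lower with Dox than in 2WND and 2.27-fold higher after withdrawal than with Dox. In iPS cells it was 170-fold lower than in 2WND, the widest gap among the 10 genes. Of 5 RAGE ligand genes measured, S100a8 alone, an alarmin of myeloid cells, was 2-fold different in any of the 5 comparisons, and it was at least 6.92-fold lower with Dox than in 2WND. S100a11 and Hmgb1 stayed within 2-fold in each comparison.

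Pdpn encodes podoplanin, a mucin-like glycoprotein of the apical AEC-I membrane that is also made by lymphatic endothelium and by fibroblasts. It read 8.43 at Day0, 10.10 in 2WND, 10.08 in 2WND + 2W+D, 9.87 in 2WND + 2W+D + 2W-D, and 10.06 on the iPS array. Day0 stood apart from the other 4 arrays, which lay within 0.23 of each other, iPS cells included. Pdpn was 3.20-fold higher in 2WND than at Day0, and it was the only one of the 10 genes besides Vegfa that was within 2-fold of 2WND in iPS cells. All 12 fibroblast markers were also at least 2-fold higher in 2WND than at Day0, and their part in the Pdpn level was not tested. The 5 lymphatic endothelial markers were within 2-fold between all pairs of arrays compared, with 3 to 4 of 5 below 4.78 on each array.

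Of 6 membrane partners of podoplanin measured, none was 2-fold different between Day0 and 2WND, and 1 was higher with Dox: Cd44, the hyaluronan receptor, at 8.51, 7.91, 9.63, 7.93 and 6.47 in the order of the arrays above. Cd44 was 3.29-fold higher with Dox than in 2WND and 3.26-fold lower after withdrawal.

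Aqp5 encodes the water channel of the apical AEC-I membrane. It read 10.61 at Day0, 9.81 in 2WND, 9.18 in 2WND + 2W+D, 9.63 in 2WND + 2W+D + 2W-D, and 4.11 on the iPS array. It was the only one of the 10 genes that was lower in 2WND than at Day0 by more than the yardstick of 0.23, at 1.74-fold, and no lung cell array was 2-fold from the next in the series. In iPS cells it was below 4.78 and at least 32.7-fold lower than in 2WND. Of 9 other aquaporins, 3 were at least 2-fold lower with Dox (Aqp11, Aqp3 and Aqp4) and 1 was higher (Aqp1, the water channel of capillary endothelium, 2.60-fold).

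Clic5 encodes a chloride intracellular channel protein that ties membrane to the cortical actin of ezrin, radixin and moesin. It read 10.28 at Day0, 10.79 in 2WND, 8.53 in 2WND + 2W+D, 10.35 in 2WND + 2W+D + 2W-D, and 6.79 on the iPS array. With Dox it was 4.80-fold lower than in 2WND, the widest Dox difference among the 10 genes, and only 1.40% of the compared genes had a more negative difference. It was 3.54-fold higher after withdrawal than with Dox, and 16.0-fold lower in iPS cells than in 2WND.

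The CLIC family did not move as one. Clic3 read 9.16, 9.02, 7.74, 8.80 and 4.95, and Clic6 6.91, 7.32, 5.77, 7.43 and 6.34, in the same order of arrays, so both were more than 2-fold lower with Dox, by 2.44-fold and 2.93-fold. Clic1 read 10.03, 10.23, 11.25, 10.16 and 10.57 and was 2.02-fold higher with Dox, while Clic4 stayed between 10.14 and 10.42. Ezr, which encodes ezrin, was 1.78-fold lower with Dox, and Rdx and Msn (radixin and moesin) were within 2-fold.

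Akap5 encodes an anchoring protein that holds protein kinase A and calcineurin at the membrane. It read 7.74 at Day0, 9.75 in 2WND, 9.14 in 2WND + 2W+D, 9.29 in 2WND + 2W+D + 2W-D, and 5.80 on the iPS array. It had the largest difference of the 10 genes between 2WND and Day0, 4.03-fold higher, and stayed high: the 3 cultured arrays lay within 0.61 of each other. Only 4.12% of the compared genes had a lower difference between 2WND + 2W+D + 2W-D and 2WND than the -0.46 of Akap5. Among 12 other anchoring proteins and kinase A subunits, Akap12 and Prkar2b were at least 2-fold higher in 2WND than at Day0, and Akap12 alone was higher with Dox (2.42-fold).

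Cav1 encodes caveolin-1, the coat protein of caveolae, abundant in AEC-I cells and also in endothelium, fibroblasts and smooth muscle. It read 6.39 at Day0, 7.59 in 2WND, 8.47 in 2WND + 2W+D, 7.43 in 2WND + 2W+D + 2W-D, and 5.70 on the iPS array. Its order was unlike that of the other genes with 2-fold changes, since the Dox array was the highest: 1.84-fold above 2WND, short of the threshold, and 2.06-fold above 2WND + 2W+D + 2W-D. Cavin2 and Cavin3, which encode cavins of the caveolar coat, were likewise higher with Dox, by 3.0-fold and 2.24-fold. Cav2, which encodes the caveolin that pairs with caveolin-1, read 9.0, 9.30, 8.52, 9.15 and 6.57 and was 1.72-fold lower with Dox.

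Markers of smooth muscle were, like Cav1, highest on the Dox array, but parted from it in iPS cells, where Cav1 was at its lowest. All 6 were at least 2-fold higher with Dox than in 2WND and all 6 were at least 2-fold lower after withdrawal, with a summed signal of 8.09 at Day0, 9.92 in 2WND, 13.69 with Dox, 10.37 after withdrawal and 11.44 in iPS cells. Of the fibroblast markers, 6 of 12 were higher with Dox and none was lower. Of 10 endothelial markers, 2 lay below 4.78 at Day0, 5 in 2WND and 5 with Dox, with summed signals of 10.46, 8.49 and 9.06. The part of these cell types in the Cav1 level was not tested.

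**Figure D2:**
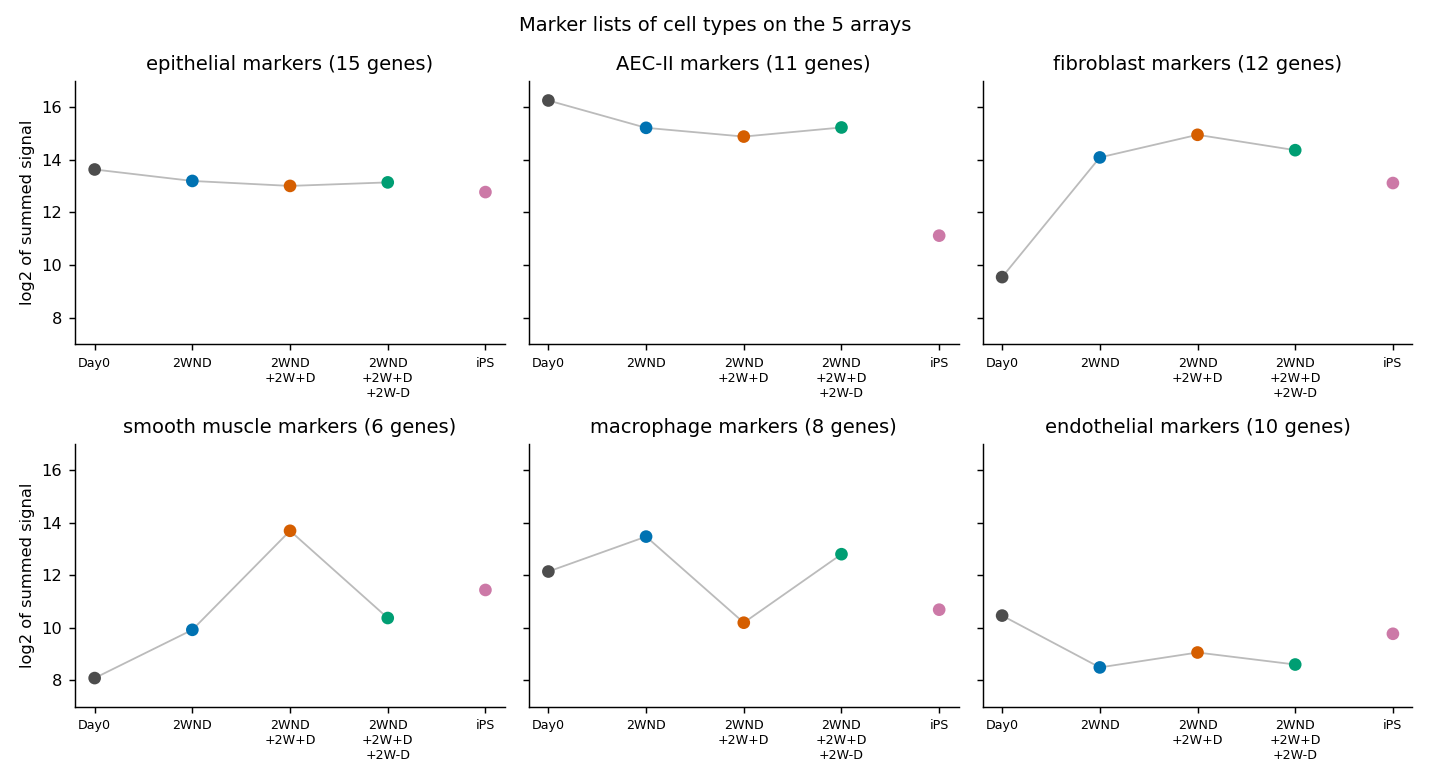
Log2 of the summed signal (vertical axis) of 6 marker lists of cell types on the 5 arrays (horizontal axis), 1 point for each array. Smooth muscle markers peak at 13.69 in 2WND + 2W+D, and fibroblast markers stand above their Day0 level of 9.54 on all other arrays. The macrophage sum is lowest in 2WND + 2W+D, at 10.19, but the mean log2 value of these markers is not. That mean is 6.58 in 2WND + 2W+D, against 5.99 at Day0 and 5.38 in iPS cells. Lyz1 makes up most of the macrophage sum at Day0 and Cd68 most of it in iPS cells.

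Emp2 encodes a tetraspan membrane protein of AEC-I cells. It read 12.26 at Day0, 12.35 in 2WND, 12 in 2WND + 2W+D, 12.21 in 2WND + 2W+D + 2W-D, and 8.48 on the iPS array. The 4 lung cell arrays lay within 0.35 of each other, and iPS cells were 14.6-fold lower than 2WND. Its relatives Emp1 and Emp3 followed another course: Emp1 read 7.16, 9.70, 11.23, 9.82 and 8.57 and Emp3 5.48, 9.28, 10.11, 9.26 and 7.88, so that Emp1 was 5.85-fold and Emp3 13.9-fold higher in 2WND than at Day0, and Emp1 was a further 2.87-fold higher with Dox. Pmp22, the third relative, read 10.08, 11.16, 10.90, 11.19 and 8.26, with 2.11-fold more in 2WND than at Day0 and, as for Emp2, less than 2-fold between the cultured arrays and a much lower level in iPS cells (7.47-fold below 2WND).

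Rtkn2 encodes rhotekin-2, an intracellular signalling protein. It read 7.66 at Day0, 9.11 in 2WND, 6.95 in 2WND + 2W+D, 8.37 in 2WND + 2W+D + 2W-D, and 7.63 on the iPS array. 2WND was the highest array, 2.73-fold above Day0 and 4.47-fold above the Dox array, and of the 10 genes only Rtkn2 was lower with Dox than in iPS cells. A second probe of the gene read 7.55, 8.37, 6.74, 7.68 and 5.92. By that probe Dox was again lower than 2WND, by 1.63 on the log2 scale, but iPS cells were the lowest array and the difference between 2WND and Day0 was 0.82, short of 2-fold. The third probe stayed between 2.21 and 2.43, below 4.78 on all arrays. The related Rtkn read 8.22, 6.41, 6.24, 6.50 and 6.02 and was 3.50-fold lower in 2WND than at Day0, the opposite direction to Rtkn2.

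Hopx encodes a small homeodomain protein that binds no DNA and marks AEC-I cells and their precursors. It read 5.08 at Day0, 6.10 in 2WND, 4.69 in 2WND + 2W+D, 6.0 in 2WND + 2W+D + 2W-D, and 4.37 on the iPS array. The values with Dox and in iPS cells lay below 4.78, and the one at Day0 was close to it. Hopx was 2.03-fold higher in 2WND than at Day0, only just past the threshold, at least 2.50-fold lower with Dox than in 2WND, and at least 2.32-fold higher after withdrawal than with Dox. 2WND and 2WND + 2W+D + 2W-D differed by 0.10. By immunostaining, the study saw Hopx protein in 2WND only in cells without surfactant protein C. After Dox it saw Hopx protein in a large share of cells with surfactant protein C, and in fewer after withdrawal. Hopx RNA on the arrays was lower with Dox and higher after withdrawal, the opposite direction to this share of stained cells. The staining counts cells in colonies, whereas the arrays read bulk RNA, with the Dox value below 4.78. Ptprc, which encodes the leukocyte antigen CD45, had a like order over the cultured arrays, at 7.54 in 2WND, 5.71 with Dox and 7.23 after withdrawal, and lay below 4.78 at Day0 and in iPS cells. Of 8 macrophage markers, 7 were at least 2-fold higher in 2WND than at Day0, 7 lower with Dox and 7 higher after withdrawal, and their part in the levels of Hopx and Rtkn2 was not tested.

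Vegfa encodes the vascular endothelial growth factor that alveolar epithelium supplies to the capillaries. It read 10.37 at Day0, 10.49 in 2WND, 10.81 in 2WND + 2W+D, 10.47 in 2WND + 2W+D + 2W-D, and 9.99 on the iPS array. The whole span was 0.82, and Vegfa was the only one of the 10 genes that no 2 arrays separated by 2-fold. Of 9 other ligand and receptor genes of the VEGF axis, 4 were higher by 2-fold or more in 2WND than at Day0 (8.94% of all compared genes) and 2 were lower (5.21%). The related ligand gene Vegfd (10.23 in 2WND) was 28.7-fold higher. The receptor genes went both ways: Flt1 was 6.38-fold and Nrp2 3.02-fold higher, while Nrp1 was 4.40-fold and Kdr 3.85-fold lower. On the same step, 5 of 10 endothelial markers, Kdr among them, were at least 2-fold lower and none was higher. Their part in these differences was not tested.

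Set side by side, the 10 genes differed between 2WND and Day0 mostly upward. Akap5, Pdpn, Rtkn2, Cav1 and Hopx, 5 of 10, were at least 2-fold higher in 2WND, against 8.94% of all compared genes, and none was lower, against 5.21%. The call for Rtkn2 was lost when its probes were averaged (0.77), including the probe that lay below 4.78 on all arrays. The median difference was 0.77 over the 10 genes and 0.01 over all. Ager, Emp2 and Vegfa differed by less than 0.23. Of 24 other AEC-I genes measured, 9 were at least 2-fold higher as deposited and 8 counted from 4.78, led by Scnn1g (4.88-fold) and Col4a3 (2.73-fold), and Radil alone was lower. Sema3a is the one that falls short when so counted, at 1.79-fold. Over the same step, 7 of 11 AEC-II markers were at least 2-fold lower and 7 of 8 macrophage markers at least 2-fold higher, with Lyz1 lower. Of 15 epithelial markers, only 1 was at least 2-fold lower, but their median log2 difference was -0.55. The part of these in the AEC-I gene differences was not tested.

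**Figure D3:**
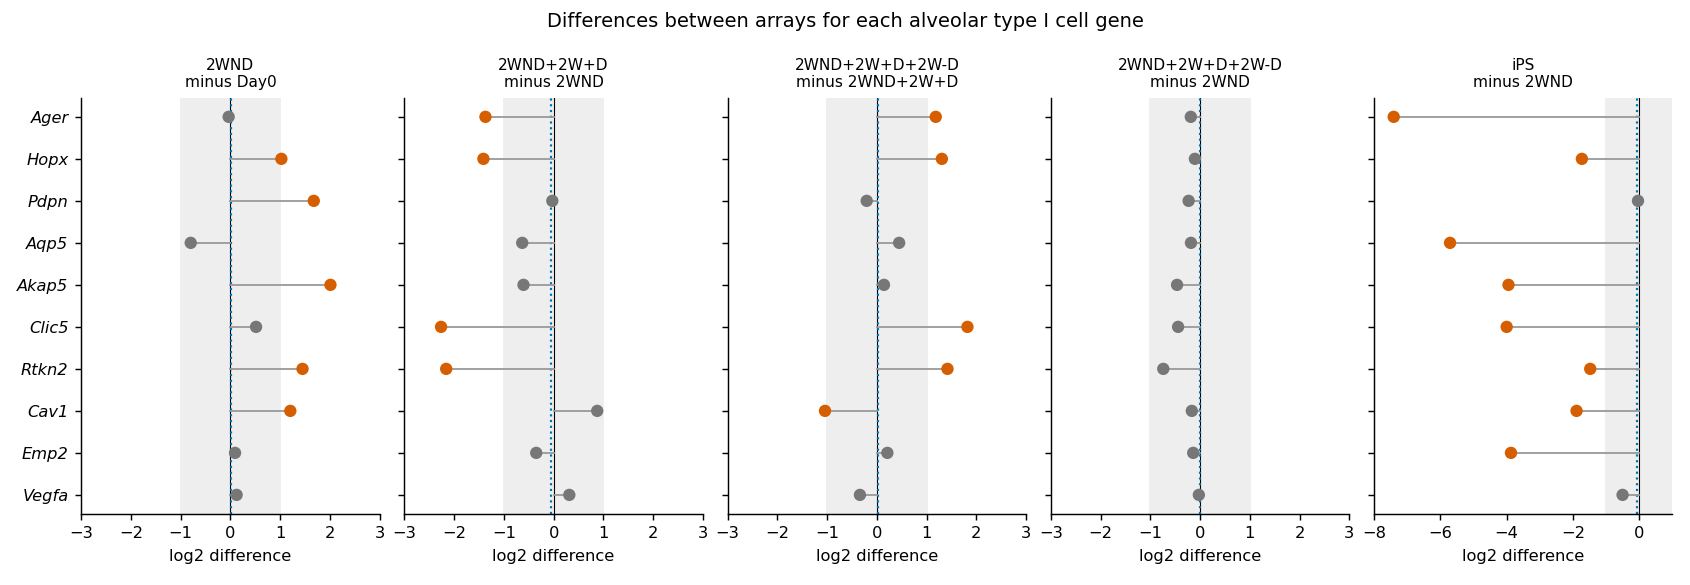
Log2 difference (horizontal axis) of each of the 10 genes (vertical axis) in the 5 comparisons, 1 panel each, with the grey band within 2-fold, points past it in orange and a dotted blue line at the median of all compared genes. The iPS panel has a wider axis. With Dox, 4 genes lie past -1, and after withdrawal no gene lies past 2-fold of 2WND.

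With Dox compared with 2WND, Clic5, Rtkn2, Hopx and Ager, 4 of 10, were at least 2-fold lower, against 7.56% of all compared genes, and none was higher, against 6.9%. The median was -0.62 over the 10 genes and -0.05 over all, and 8 of the 10 lay below 0, against 54.0% of all compared genes, or 7 with values set relative to the epithelial markers, where Pdpn changed sign. The exceptions above 0 were Cav1 and Vegfa. Of the 24 other AEC-I genes, 5 were lower, led by Cyp4b1 (a cytochrome P450, 15.4-fold), Gramd2 (4.18-fold) and Scnn1g (3.21-fold), and 2 were higher, Igfbp2 (a binding protein of insulin-like growth factors, 3.40-fold) and Itgb6 (an integrin subunit known to activate TGF-beta, 3.33-fold), with a median of -0.27. None of the 15 epithelial markers was 2-fold different, with a median of -0.20, and 7 of 8 macrophage markers were at least 2-fold lower, their summed signal going from 13.47 to 10.19. Among 7 basal and airway markers, 4 were lower, led by Scgb1a1 (13.9-fold), Foxj1 (9.90-fold) and Cyp2f2 (6.02-fold), and Krt14 was higher (3.49-fold). Among 11 AEC-II markers, Sftpd (3.34-fold) and Abca3 (2.17-fold) were lower and none was higher. The part of macrophage, airway and AEC-II RNA in these differences was not tested.

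**Figure D4:**
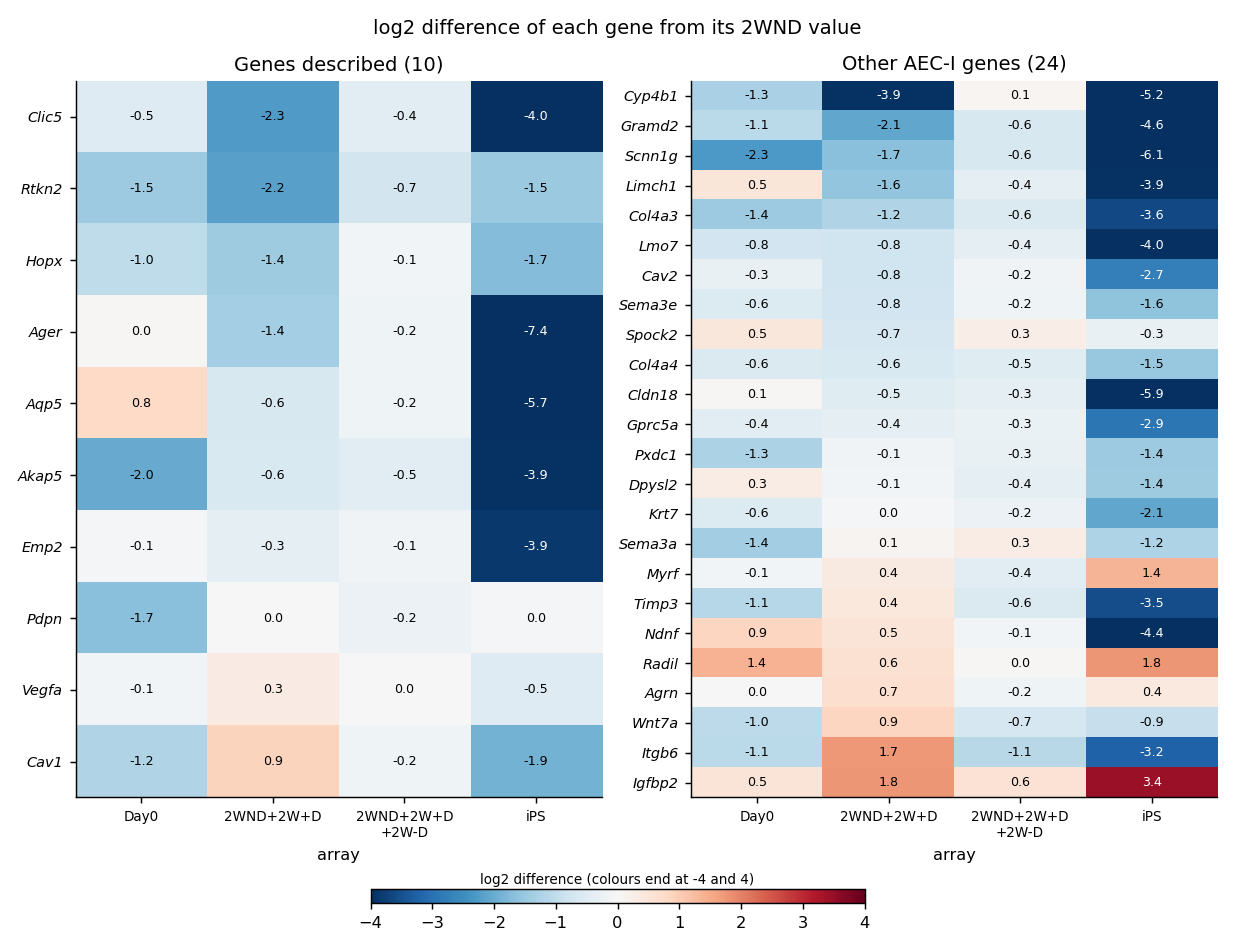
Log2 difference of each gene (rows) from its own 2WND value on the other 4 arrays (columns), for the 10 genes described at left and 24 other AEC-I genes at right, ordered by the Dox column, with blue lower and red higher. In the Dox column, Clic5 and Rtkn2 lead the left panel at -2.26 and -2.16 and Cyp4b1 the right panel at -3.94, and the withdrawal column is pale.

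Withdrawal of Dox went with the reverse differences. Against the Dox array, Clic5, Rtkn2, Hopx and Ager were at least 2-fold higher in 2WND + 2W+D + 2W-D (4 of 10, 8.08% of all compared genes) and Cav1 was lower (1 of 10, 6.17% of all), with a median of 0.33 over the 10 genes and 0.03 over all. The call for Cav1 was lost when the arrays were shifted to the same median (-0.94), and that for Rtkn2 when its probes were averaged (0.86). The Rtkn2 mean again includes the probe below 4.78 on all arrays. This comparison shares the Dox array with the one before, so opposite signs in them are not independent. Of the log2 difference that separated the Dox array from 2WND, the part found reversed after withdrawal was 92.6% for Hopx (92.1% with its Dox value raised to 4.78), 86.5% for Ager, 80.5% for Clic5 and 65.8% for Rtkn2. Of the other AEC-I genes, 4 of 24 were higher, led by Cyp4b1 (16.1-fold), Gramd2 (2.69-fold) and Limch1 (2.29-fold), and 3 were lower, Itgb6 (7.21-fold), Wnt7a (2.90-fold) and Igfbp2 (2.28-fold). Of the macrophage markers, 7 of 8 were higher, as were 6 of 7 basal and airway markers and 2 of 11 AEC-II markers. The basal marker Krt14 was lower (40.2-fold). The part of these lists was again not tested.

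Between 2WND + 2W+D + 2W-D and 2WND, none of the 10 genes was 2-fold different, against 0.888% of all compared genes higher and 0.415% lower. All 10 differences were below 0, where 49.6% of all compared genes were, with a median of -0.18 over the 10 genes and 0.00 over all. This count became 9 when the arrays were quantile normalized, shifted to the same median or set relative to the epithelial markers, because Vegfa, at -0.02, changed sign. The largest was Rtkn2, 1.67-fold lower, and only 1.03% of the compared genes had a lower difference. Rtkn2, Akap5 and Clic5 differed by clearly more than the yardstick of 0.23, Pdpn lay at it, and the other 6 differed by less. The yardstick was taken from this same pair of arrays, so it places each gene among all genes and gives no array error. Of the 24 other AEC-I genes, Itgb6 alone was 2-fold lower and none was higher, with a median of -0.33.

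In iPS cells compared with 2WND, 8 of 10 genes were at least 2-fold lower, against 17.8% of all compared genes, and none was higher, against 15.6%. The median was -2.88 over the 10 genes and -0.06 over all. Ager, Aqp5, Clic5, Akap5 and Emp2 were more than 10-fold lower, in that order with at least 32.7-fold for Aqp5. Clic5, Akap5 and Emp2, at 16.0-fold, 15.4-fold and 14.6-fold, differed from each other by less than the yardstick. Cav1 was 3.71-fold, Rtkn2 2.79-fold and Hopx at least 2.50-fold lower. Of the other AEC-I genes, 18 of 24 were lower as deposited and 17 counted from 4.78, led by Scnn1g (70.8-fold), Cldn18 (60.2-fold) and Cyp4b1 (35.6-fold), and 3 were higher, Igfbp2 (10.9-fold), Radil (3.40-fold) and Myrf (2.57-fold).

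**Figure D5:**
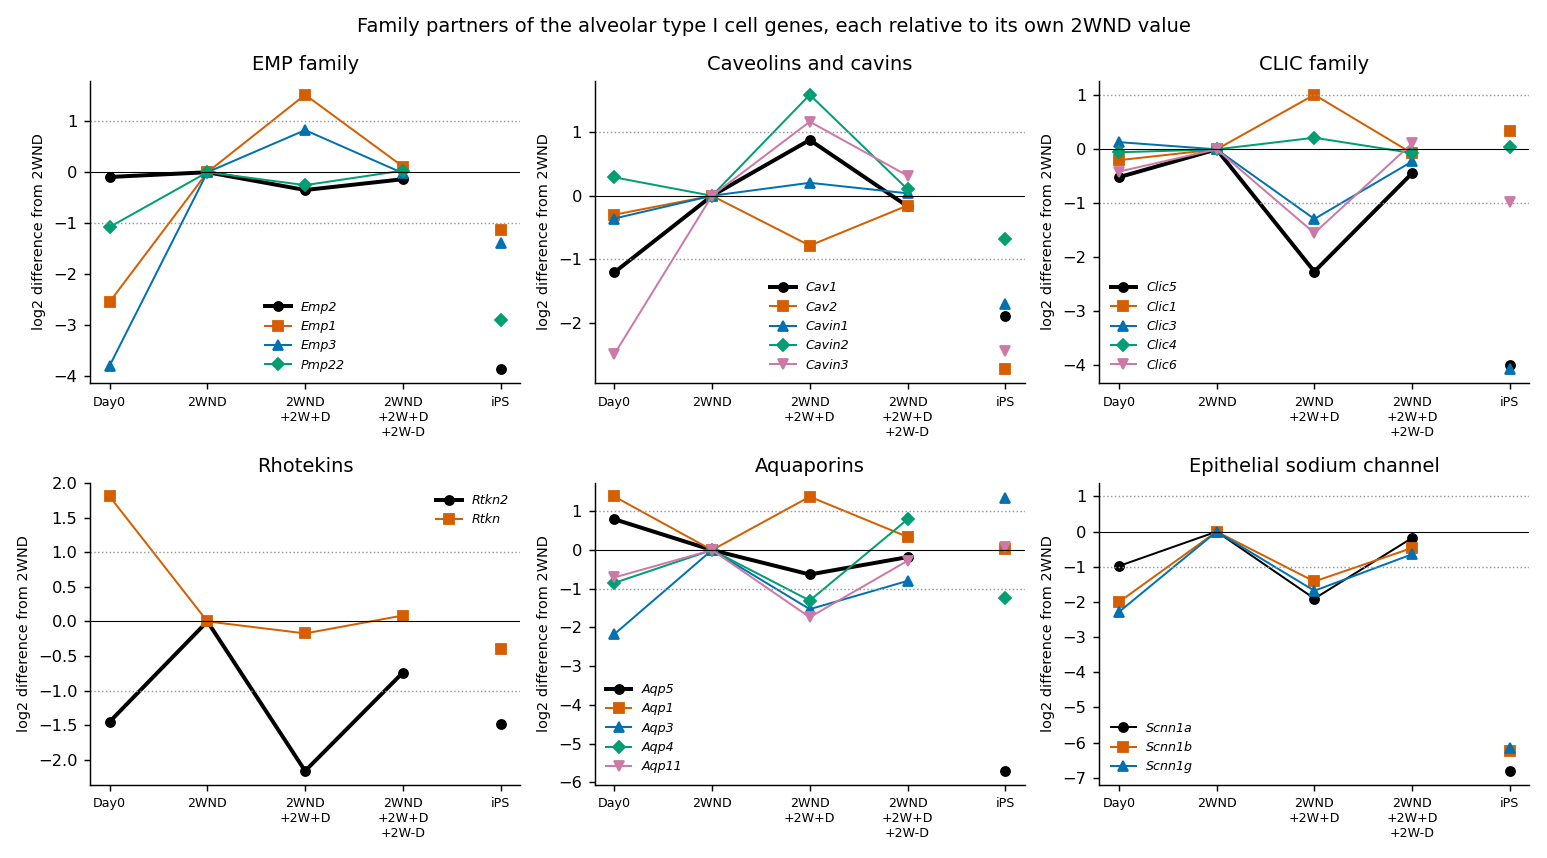
Log2 difference from 2WND (vertical axis) of the genes of 6 families on the 5 arrays (horizontal axis), each gene relative to its own 2WND value, with thick lines for the genes described and dotted lines at 2-fold. Clic5 dips with Clic3 and Clic6 under Dox but not with Clic1, Emp2 stays near 0 where Emp1 reaches 1.52, and the 3 sodium channel genes dip together.

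Fluid transport in AEC-I cells uses the epithelial sodium channel together with water channels, and its 3 subunit genes, like Clic5, were highest in 2WND and lower with Dox. Scnn1a read 11.66 at Day0, 12.64 in 2WND, 10.74 in 2WND + 2W+D, 12.46 in 2WND + 2W+D + 2W-D, and 5.84 on the iPS array. Scnn1b and Scnn1g were 4.01-fold and 4.88-fold higher in 2WND than at Day0. With Dox, Scnn1a was 3.74-fold, Scnn1g 3.21-fold and Scnn1b 2.67-fold lower than in 2WND. In iPS cells the 3 genes were between 70.8-fold and 112-fold lower.

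Similarity of course was measured as the root mean square (RMS) difference of the 5 log2 values after each gene's own mean was removed. Within the 10 genes, Hopx and Rtkn2 were the closest pair, at 0.38, followed by Ager and Aqp5, at 0.63. Over 8291 other genes whose values span 2-fold or more, the closest to Ager were Hp (RMS 0.16), Napsa (0.27) and Slc34a2 (0.38), of which Napsa and Slc34a2 are on the AEC-II list, and only 7 genes lay within 0.5. The closest to Aqp5 were Il18r1 (0.15), Muc1 (0.24) and Adgrf5 (0.25), with 15 genes within 0.5. The closest to Clic5 were Fam189a2 (0.13), P2rx5 (0.19) and Tmem116 (0.20), with 73 within 0.5.

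The remaining genes had more near neighbours or other ones. Closest to Akap5 were Lpl (0.25), Nipal2 (0.26) and Nebl (0.30), and to Emp2 Nfia (0.15), Tlr3 (0.16) and Ptprm (0.17). Closest to Cav1 were Fosl2 (0.09), Il4ra (0.14) and Sema3c (0.15). Closest to Rtkn2 were Fgr (0.09), F10 (0.17) and Mybphl (0.21), and to Hopx Cyb5d2 (0.09), Ccrl2 (0.11) and Cd300a (0.12), of which Fgr and Cd300a are known as genes of myeloid cells. Closest to Pdpn were Ppt2 (0.05), Ece2 (0.07) and Gcnt2 (0.07). For genes with a small span such as Hopx and Pdpn, 953 and 697 genes lay within 0.5, so a near neighbour is common there. Vegfa spans less than 2-fold and was given no neighbours. Deposited values were used here also where they lie below 4.78, as on the Dox and iPS arrays for Hopx and the iPS array for Aqp5, where small differences have no firm order. The 5 arrays are shared by all of these values, and the likeness is a description without a test.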

How the data were processed

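Per the study's notes, Affymetrix Expression Console was used for the arrays, and the values deposited by the authors are on a log2 scale, for 41345 probes. Its version, summarization, scaling between arrays and genome build are not given in the sources used here, and the log2 scale was read from the range of the values (1.25 to 13.58). Equal RNA from 3 separate samples in each group was used, but pooling on 1 array is not stated. No detection calls were used, so signal over background is unknown for single genes, and the number of arrays limits the precision.

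Of the probes, 23521 have 1 symbol, and 23328 of these were matched by gene identifier to RefSeq (GRCm38.p6). Probes with several symbols (1820) or none (16004) were left out. Comparisons are differences of log2 values, with no test. Where 1 of 2 arrays lies below 4.78, a fold is given as at least the fold counted from 4.78. Differences, medians, counts and the likeness of courses use the values as deposited unless stated. The 10 genes and 24 lists beside them (Other AEC-I genes, families, marker lists) were chosen with earlier results of these data known, and support nothing by themselves. Of each list, counts are given with at most 3 genes in each direction by size of difference, plus family partners of the 10 genes. Some genes, such as Ptprc, Krt8, Krt18 and Gata6, were named outside this rule. The robust spread is 1.4826 times the median absolute deviation. The calculation was tested on simulated data. Alternatives were 2 normalizations, probe means, raising of values below 4.78, values relative to the epithelial list, a 4-fold threshold and other filters on dim genes. Python 3.11.15, numpy 2.4.6, pandas 2.3.3 and matplotlib 3.10.9 were used.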

Additional observations from a re-analysis of the deposited data

How the results depend on the processing

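Quantile normalization kept all 50 differences of the 10 genes within 0.23 of the deposited values, and so did a shift of the arrays to the same median. That shift moved the median of all genes between 2WND + 2W+D + 2W-D and 2WND + 2W+D by 0.11, and Cav1, at -1.04, was then within 2-fold, which left 0 genes lower. Averaging the probes of a gene moved 4 of 50 differences, all of Rtkn2, which was then within 2-fold in 2WND against Day0 (0.77) and after withdrawal against Dox (0.86). That mean includes the Rtkn2 probe below 4.78 on all arrays. Raising values below 4.78 moved 2 of 50, both in iPS cells (Hopx to -1.32 and Aqp5 to -5.03). Values relative to the epithelial list moved the median of all genes by 0.55 in 2WND against Day0, 0.21 with Dox, -0.14 after withdrawal against Dox and 0.46 in iPS cells, and 20 of 50 differences moved. On that scale the median of the 10 genes was 1.32 in 2WND against Day0 and -2.42 in iPS cells, 1 gene (Cav1) was at least 2-fold higher with Dox, and Clic5 was past 2-fold in 2WND against Day0 (1.07). At a 4-fold threshold, 1 gene was higher in 2WND than at Day0 (3.58% of all compared genes), 2 were lower with Dox (1.92%), 0 were higher (2.24%) and 0 lower (1.17%) after withdrawal against Dox, and 5 were lower in iPS cells (6.36%). No called difference changed direction under these alternatives. The shares of all genes past 2-fold stayed within 1.5 times of those given with no filter on dim genes, with a filter at the 75th percentile and with low values raised, the last chosen after seeing the data. No paired analysis was possible because each condition has 1 array, and for the same reason no replicate could be left out. Without replicates, differences near 2-fold such as those of Hopx and Cav1 cannot be told from array error.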

Other observations

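Transcription factors of the alveolar epithelium, read beside the 10 genes, had courses of their own. Of 9 measured besides Hopx, 4 were at least 2-fold lower in 2WND than at Day0 and 1 was higher (Sox9, 2.31-fold). Etv5, a factor that maintains AEC-II cells, read 12.21 at Day0, 8.42 in 2WND, 8.86 in 2WND + 2W+D, 8.80 in 2WND + 2W+D + 2W-D, and 10.38 on the iPS array, so that it was 13.8-fold lower in 2WND than at Day0 on the step where 5 of the 10 AEC-I genes were higher. Klf5, read at 9.82, 9.83, 8.39, 9.59 and 10.03, was 2.72-fold lower with Dox and 2.31-fold higher after withdrawal. Nkx2-1 and Gata6 were within 2-fold over the 4 lung cell arrays and 6.83-fold (at least) and 5.19-fold lower in iPS cells.

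Ankrd1 and Ccn2, known targets of YAP and TEAD in a pathway linked to AEC-I fate and to stretch, were higher on the Dox array, where Ager and Clic5 were lower. Ankrd1 read 5.23 at Day0, 4.85 in 2WND, 8.22 in 2WND + 2W+D, 4.44 in 2WND + 2W+D + 2W-D, and 5.81 on the iPS array, and it was 10.3-fold higher with Dox than in 2WND. Ccn2 was 4.29-fold higher with Dox and 4.61-fold lower after withdrawal. The list holds 13 genes, both targets and the factors themselves, and 3 of them, these 2 and Tead2, were at least 2-fold higher with Dox (6.9% of all compared genes), none lower, with a median of 0.87. After withdrawal, 6 of 13 were lower (6.17% of all compared genes). Smooth muscle markers were higher on the same array, as given above, and their part was not tested.

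Genes of the Krt8-marked state through which AEC-II cells are known to pass on the way to AEC-I cells in injured mouse lung were also read. Krt8 itself and Krt18 were within 2-fold in both steps, with log2 differences of 0.07 and 0.09 in 2WND against Day0 and of 0.60 and 0.00 with Dox. Of 9 genes measured, 5 were at least 2-fold higher in 2WND than at Day0 (8.94% of all compared genes), led by Cldn4 (10.4-fold), Cdkn1a (8.88-fold) and Tnip3 (at least 2.15-fold), and none was lower. With Dox, 4 of 9 were higher (6.9% of all), led by Cldn4 (4.32-fold), Tnip3 (3.37-fold) and Itgb6 (3.33-fold, also on the other AEC-I list), and none was lower. Fibroblast markers were higher in both steps, 12 of 12 and 6 of 12, and their part was not tested.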
